A study of Mus musculus and Homo sapiens with 18 samples.

Results

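Nonsense-mediated decay (NMD) transcripts are messenger RNAs that an annotation expects to be destroyed because their reading frame ends too early. The members described here are the transcripts of mouse bladder tumours that the deposited table labels nonsense_mediated_decay and that reached a total of at least 30 estimated counts over 6 libraries. They number 2637 of the 147828 transcripts in the table. They come from 2028 genes, of which 440 have more than 1 member and none has more than 9, so members of the same gene share sequence and are not independent. Expression values chose them: the lowest total inside was 30 for Sh3tc1-204, and the highest total outside was 29.971 for Tsr1-205. Each member was compared with the protein_coding transcripts of its own gene, called coding transcripts below.

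The tumours are from a genetically engineered mouse model of bladder cancer, which the labels name only as GEMM. The 2 groups are 3 control libraries, described as vehicle, and 3 libraries from tumours treated with chemotherapy, cisplatin plus gemcitabine, which the library names call relapse. The alleles of the model, the promoter that drives them, and the age and sex of the mice are not given in the sources used here. The labels do not say that the 3 libraries of a group are separate tumours, so the p-values measure only the spread between these libraries, which may be technical.

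NMD works during translation. A ribosome that stops well upstream of an exon junction leaves the exon junction complex (EJC) in place behind it, and the helicase Upf1, with Upf2, Upf3 proteins and the kinase Smg1, then marks the RNA for cleavage by Smg6 or for removal of its tail and cap through Smg5 and its partners. Genes of RNA-binding proteins use the pathway to control their own amount: many SR proteins, the serine- and arginine-rich splicing factors, have an extra exon with a stop codon, often called a poison exon, whose inclusion sends the RNA to decay. Other members end at the normal stop codon but have a further intron spliced out behind it.

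The sequences shown here are of poison exons in 6 members whose level fell at relapse. Each line gives the bases from the first base of the exon to the stop codon, with the stop codon in capitals, read 5′ to 3′ on the transcript strand. They are from GENCODE release M21 transcripts on GRCm38, and in each the exon is absent from the annotated coding transcripts of the gene.
Srsf3-201, exon 4, chr17:29039454-29039487, plus strand: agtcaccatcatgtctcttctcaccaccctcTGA
Tra2b-206, exon 2, chr16:22259181-22259261, minus strand: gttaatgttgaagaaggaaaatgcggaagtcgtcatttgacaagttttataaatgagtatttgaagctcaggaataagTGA
Srsf7-203, exon 4, chr17:80205054-80205081, minus strand: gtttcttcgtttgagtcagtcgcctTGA
Sat1-207, exon 4, chrX:155215217-155215230, minus strand: gttacagtctcTAG
Tia1-218, exon 6, chr6:86423606-86423642, plus strand: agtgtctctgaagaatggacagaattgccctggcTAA
Rps19-205, exon 4, chr7:24886107-24886153, plus strand: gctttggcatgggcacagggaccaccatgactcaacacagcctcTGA
The whole exons are longer than the stretch up to the stop: 456 bases in Srsf3-201, 276 in Tra2b-206, 460 in Srsf7-203, 110 in Sat1-207, 66 in Tia1-218 and 81 in Rps19-205. The letters show how soon each reading frame ends, after 14 bases of the exon in Sat1-207 and after 81 in Tra2b-206.

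The libraries held 18964942 to 21757109 estimated counts. The sources of the 2 groups differed in more than treatment. Ddx3y, a Y-linked gene, had 70.3 to 77.9 CPM (counts scaled to library size) in the control libraries and 0 in every relapse library, so the chromosomes of the source and the treatment cannot be told apart. Of markers of the labelled tissue and of other cells, the 11 urothelial genes summed to 5.10 to 7.04 CPM in controls and 345 to 361 CPM at relapse, with 7 of 11 under 1 CPM in all libraries. Krt8, Krt18, Upk1b and Krt14 made up nearly all of the relapse sum, while Upk1a was lower in every relapse library than in any control. The 6 immune genes summed to 1.42 to 1.79 CPM and 3.11 to 3.69 CPM, with 5 of 6 under 1 CPM in all. The 4 endothelial genes summed to 1.70 to 2.61 CPM and 150.0 to 162 CPM, with 3 of 4 under 1 CPM in all. Kdr alone had 149 to 161 CPM at relapse. Among the scarce genes, Tek was lower and Pecam1 higher in every relapse library than in any control. The 8 fibroblast genes summed to 20473 to 21155 CPM in controls and 11058 to 11329 CPM at relapse, and the 4 smooth muscle genes to 1675 to 1756 CPM and 981 to 1007 CPM, with none of these 12 under 1 CPM throughout. The fibroblast genes did not move together. Col1a1, Col1a2, Col3a1 and Pdgfrb were lower at relapse in every library, while Vim, Pdgfra, Dcn and Lum were higher in every library. The fibrillar collagen Col1a1 had 9868 to 10177 CPM in controls and 5388 to 5515 CPM at relapse, and the growth factor receptor Pdgfra had 9.24 to 13.2 CPM and 103 to 111 CPM. The part of cell makeup in the results below was not tested, and fewer cells of a type and less RNA per cell cannot be told apart in these bulk libraries.

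NMD transcripts took a smaller share of the relapse libraries. They held 1.72%, 1.72% and 1.71% of the estimated counts in the controls and 1.48%, 1.44% and 1.44% at relapse, which is 1.71% ± 0.00774 against 1.45% ± 0.0206 (SD, n = 3 each). The groups did not overlap, and an exact permutation test of the difference of -0.261 percentage points gave p = 0.1, two-sided, the smallest value that 3 against 3 libraries allow. On the deposited TPM, a level scaled by transcript length and library, the shares were 2.04% ± 0.0247 and 1.70% ± 0.0392 (SD, n = 3 each). Without the 10 highest members the count shares were 1.45% ± 0.0121 and 1.19% ± 0.0153, again without overlap of the groups.

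The shares of 2 other biotypes of coding genes differed less between the groups. Retained-intron transcripts, which keep an unspliced intron, held 1.74% ± 0.0235 of counts in controls and 1.80% ± 0.0137 at relapse (SD, n = 3 each). On TPM the order was the opposite, 3.18% ± 0.0836 and 3.15% ± 0.0253, with overlap. Transcripts of coding genes without a defined reading frame held 1.01% ± 0.0182 and 1.03% ± 0.0184 (SD, n = 3 each). The share of long noncoding RNAs differed by more than that of the members, with 0.684% ± 0.00338 of counts in controls and 1.63% ± 0.0162 at relapse. Protein-coding transcripts held 93.7% ± 0.0566 and 92.8% ± 0.101 (SD, n = 3 each). The plot of library shares by biotype shows these levels.

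**Figure D1:**
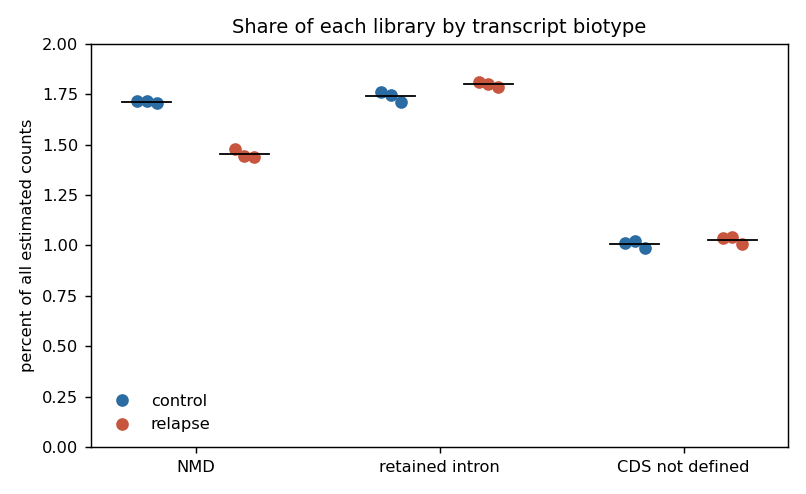
Percent of all estimated counts (vertical axis) assigned to NMD, retained-intron and CDS-not-defined transcripts in the 3 control and 3 relapse libraries; points are libraries and black lines are group means. The NMD points lie between 1.71 and 1.72 in controls and between 1.44 and 1.48 at relapse, while the retained-intron points are 1.74 and 1.80 on average, an order that TPM shares do not keep.

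Both the level of the genes and the share within them moved. Summed over all genes with an NMD transcript, NMD transcripts had 17141 CPM in controls and 14534 CPM at relapse. Had each gene kept its control share of NMD counts in NMD plus coding counts, its changed level alone would have given 15626 CPM. Of the difference of -2607 CPM, -1515 CPM thus followed from gene levels and -1092 CPM, or 41.9%, from a changed share within genes. Srsf3 shows the second kind: its NMD counts went from 152 to 23.5 CPM, while its control share would have given 190 CPM at relapse, above its control level. Serpinf1, which encodes a secreted inhibitor of angiogenesis, shows the first: its NMD counts went from 229 to 43.6 CPM, against 34.8 CPM at its control share. Il4ra, the interleukin-4 receptor chain, went the other way with its gene, from 17.0 to 127 CPM against 121 CPM at its control share. These 3 genes were chosen from the largest differences after their values were seen.

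Tested one by one, more members were lower than higher at relapse. Of 1956 members with enough counts for edgeR's quasi-likelihood test, 236 fell and 97 rose at an adjusted p under 0.05. Without control replicate 3 the falls numbered 156, the fewest of the fits that left out 1 library. Together these are 17.0% of the members tested, while over all 32281 transcripts tested 32.5% were called, 16.3% lower and 16.2% higher. The share called was thus lower than the background, and the members' calls lay mostly on the lower side. Members have low counts, with a median total of 152, and 681 did not have enough for the test. The summed coding transcripts of a gene were tested likewise, and 74.8% of 12547 genes were called. For 141 of the 236 members that fell the summed coding transcripts of the gene fell too, for 44 they were not called, for 41 they rose and for 10 they were not tested. Of the 97 that rose, 68 had coding transcripts that rose, 9 that fell, 19 not called and 1 not tested. Transcript counts were far noisier than gene counts, with a biological coefficient of variation of 0.5225 against 0.05223.

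**Figure D2:**
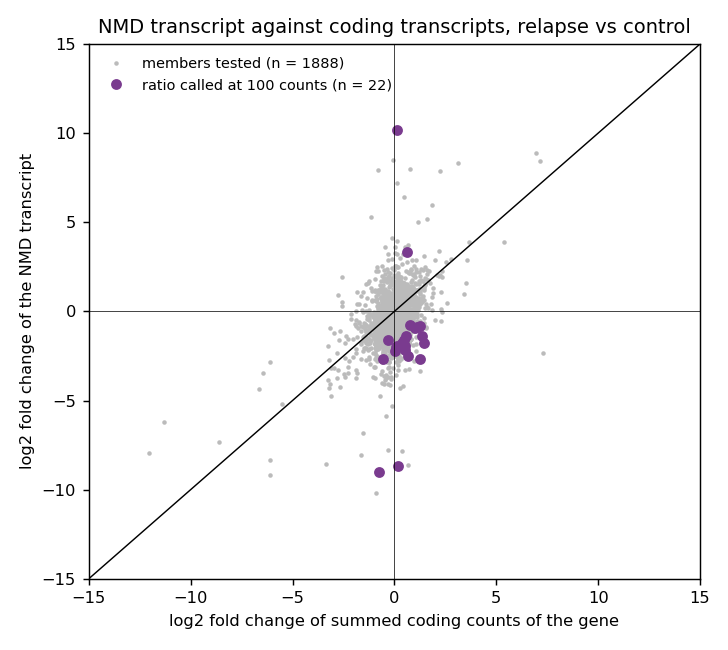
Log2 fold change of each NMD transcript (vertical axis) against that of the summed coding transcripts of its gene (horizontal axis), relapse against control, for the 1888 members tested for both; the line marks equal change and purple points are the 22 members whose ratio passed the test at a minimum of 100 counts. Of the purple points 20 lie below the line and 2 above it. Those at log2 -9.01, -8.67 and 10.2 on the vertical axis are Kdm5a-206, Guf1-205 and Myof-205, which are at 0 in a group.

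The ratio of a member to its coding transcripts, compared within each library, gave no call in the test chosen as the main one. With a minimum total of 30 counts for member and coding transcripts, edgeR called 0 of 2564 members, and 0% of the 31056 transcripts of any biotype, with a smallest adjusted p of 0.0743. At an unadjusted p under 0.05, 218 members were lower and 98 higher at relapse, against 5.8% lower and 6.57% higher of all transcripts. Data were simulated with the spread of real transcripts, but with a small fixed spread for the coding reference. The changed transcripts were of any biotype, not members alone, with totals of at least 100 counts. On these data the main test found 0 of 67 changes of 2-fold and 0 of 66 of 4-fold. It found 15 of 65 changes of 16-fold, so the 0 calls do not show that ratios were equal. With the minimum total raised to 100 counts, it found 0 of 64, 3 of 60 and 21 of 57 on such data. With a minimum total of 100 counts, as an alternative, edgeR called 20 members lower and 2 higher of 1569, beside 0.448% lower and 0.379% higher, or 0.826% in all, of the 20335 transcripts tested. limma on the log2 TPM ratio called 16 lower and 8 higher, beside 0.499% and 0.535% of all transcripts. edgeR diffSpliceDGE, which sets each transcript against its whole gene, called 95 lower and 36 higher, beside 2.4% lower and 3.07% higher of all transcripts. limma voom on both counts called 42 lower and 9 higher, beside 1.04% and 0.937%. edgeR with bias-adjusted deviances called 5 lower and 0 higher, beside 0.0676% and 0.0483%. The fits with the highest coding transcript as the reference, with a minimum total of 10 counts, with a replicate block, with a required fold of at least 2 and without each library in turn called 0 members in either direction.

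The median ratio change was below 0 for members and slightly above 0 for the other biotypes. The median log2 change of the ratio was -0.16 over members, 0.03 over all transcripts tested, 0.11 over retained-intron transcripts, 0.05 over transcripts without a defined reading frame and 0.02 over coding transcripts set against the other coding transcripts of their gene. The 6 log2 ratios of a transcript did not overlap between groups in 406 members lower at relapse (15.8%) and 239 higher (9.32%), against 12.3% lower and 13.5% higher of all transcripts. Among members with 300 to under 1000 counts the median was -0.27 and 62.2% were below 0, against 0.02 and 49.1% for all transcripts of that size. Among members with 1000 counts or more it was -0.07, against -0.04. No test was made of these differences between lists.

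**Figure D3:**
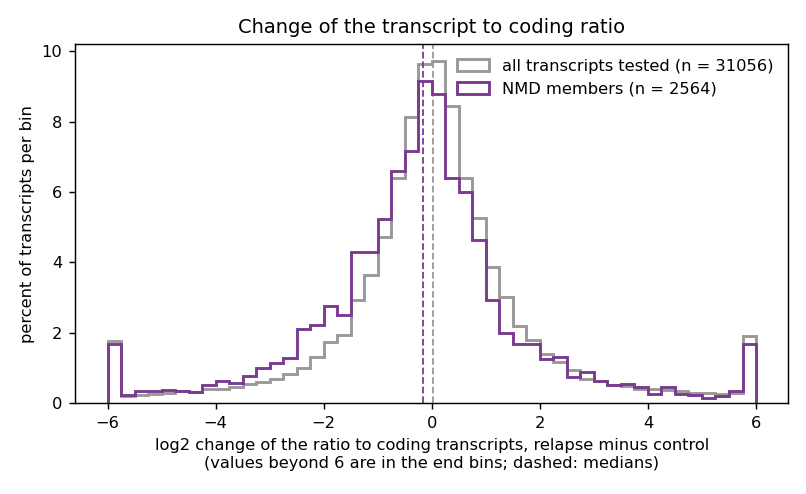
Distribution of the log2 change of the transcript to coding ratio, relapse minus control (horizontal axis), as percent of transcripts per bin, for 2564 NMD members and all 31056 transcripts tested; dashed lines are medians. The median of members is -0.16 and that of all transcripts 0.03, and the 2 distributions overlap broadly.

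Members of SR protein genes had the lowest median of the lists examined with more than 2 members. Of 13 members in 10 genes, 12 were tested for level, of which 6 fell and none rose, and 7 had ratios lower at relapse with no overlap, none higher. The median log2 ratio change of the 13 was -1.41. Over all transcripts tested, 16.3% fell and 16.2% rose in level. Ratios without overlap were lower in 12.3% and higher in 13.5% of all transcripts. These shares stand beside the counts of every list below.

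Srsf3 encodes the smallest SR protein, which binds pyrimidine-rich RNA and regulates its own splicing. Srsf3-201 (chr17:29032632-29042897, GRCm38) had 103, 106 and 97.3 TPM in controls and 13, 18.5 and 12.3 TPM at relapse. Its coding transcripts had 106, 102 and 109.9 TPM and 228, 227 and 227 TPM. The NMD transcript was thus close to the coding ones in controls, at 49 ± 1.99% of the 2 together, and 6.04 ± 1.32% at relapse (SD, n = 3 each). Srsf3-201 fell 6.37-fold by edgeR (log2 -2.67 ± 0.17 SE, adjusted p = 1.13e-04), while the coding sum rose by 1.24 ± 0.03 SE on the log2 scale (adjusted p = 1.20e-16). The log2 ratio change was -3.93 ± 0.25 SE, with an edgeR adjusted p of 0.0743 at 30 counts and 0.0251 at 100.

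Tra2b encodes an SR-like splicing activator that binds purine-rich exonic enhancers. Tra2b-206 (chr16:22246462-22265926) had 61.7, 59.5 and 66.3 TPM in controls and 14, 11 and 11.4 TPM at relapse, with no overlap. Its coding transcripts had 107, 109.7 and 99.3 TPM and 125, 119.7 and 115 TPM, and their summed counts did not pass edgeR's test (log2 0.04 ± 0.04 SE, adjusted p = 0.318). The NMD transcript fell 4.73-fold, from 37.2 ± 2.53% to 9.17 ± 0.873% of NMD plus coding TPM (SD, n = 3 each).

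Srsf7 and Srsf2, splicing factors with an RNA recognition motif, showed a rise of the coding sum beside a fall of the member. Srsf7-203 (chr17:80200830-80207307) had 17.4, 18 and 18 TPM and 5.33, 7.71 and 5.48 TPM, a fall of 2.63-fold, and was 11 ± 0.305% and 2.96 ± 0.541% of NMD plus coding TPM (SD, n = 3 each). Srsf2-202 (chr11:116850044-116853072), which ends at a stop shared with a coding transcript, had 21.2, 21.9 and 19.2 TPM and 10.9, 10.5 and 9.07 TPM. Its share was 9.44 ± 0.289% and 2.58 ± 0.186% (SD, n = 3 each), while the coding sum rose by 1.10 ± 0.04 SE on the log2 scale. Srsf1-204, outside the naming rule and added because its ratio passed at 100 counts, had 58.6, 68.1 and 99.3 counts in controls and 14.9, 12 and 23.2 at relapse, beside 44212 coding counts of the gene over all libraries.

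Members of genes for hnRNPs and related RNA-binding proteins were the most numerous of the lists. Of 51 members in 25 genes, 44 were tested for level. Of those, 7 fell and 5 rose, not above the 16.3% and 16.2% of all transcripts tested. Ratios of the 51 members were lower without overlap in 22 and higher in 4, with a median log2 change of -0.95.

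Hnrnpa1-203 (chr15:103240432-103246692), from the gene of an abundant splicing repressor, had 80.1, 48.8 and 65.8 TPM in controls and 31.6, 33.6 and 28.1 TPM at relapse. Coding transcripts had 273, 228 and 288 TPM and 479.9, 486 and 492 TPM. The member was 19.6 ± 2.7% and 6.01 ± 0.557% of the 2 together (SD, n = 3 each), and no library of one group reached the other. Its fall in level (edgeR, adjusted p = 0.0136) did not pass without relapse replicate 1, at 0.0508, or without relapse replicate 3, at 0.0564.

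Tardbp encodes TDP-43, which binds its own 3′ end and lowers its own RNA. Tardbp-201 (chr4:148615919-148626765) had 7.56, 9.02 and 8.63 TPM and 2.27, 2.1 and 1.62 TPM, a fall of 3.85-fold (edgeR, adjusted p = 0.00102), while its coding sum rose by 0.54 ± 0.04 SE on the log2 scale. It was a small part of NMD plus coding TPM, 3.9 ± 0.145% in controls and 0.684 ± 0.115% at relapse (SD, n = 3 each). Hnrnpd-204, of the gene for the RNA-stability factor AUF1, had 11.3, 10.5 and 7.73 TPM and 5.2, 5.66 and 4.78 TPM. Its level did not pass edgeR's test (adjusted p = 0.111), and its coding sum rose by 1.24 ± 0.04 SE on the log2 scale. Tia1-218, of a stress-granule protein that binds U-rich RNA, was scarce, with 2.34, 1.63 and 2.22 TPM and 0.113, 0.106 and 0.142 TPM. It fell 17.3-fold while the coding sum fell by 0.22 on the log2 scale.

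**Figure D4:**
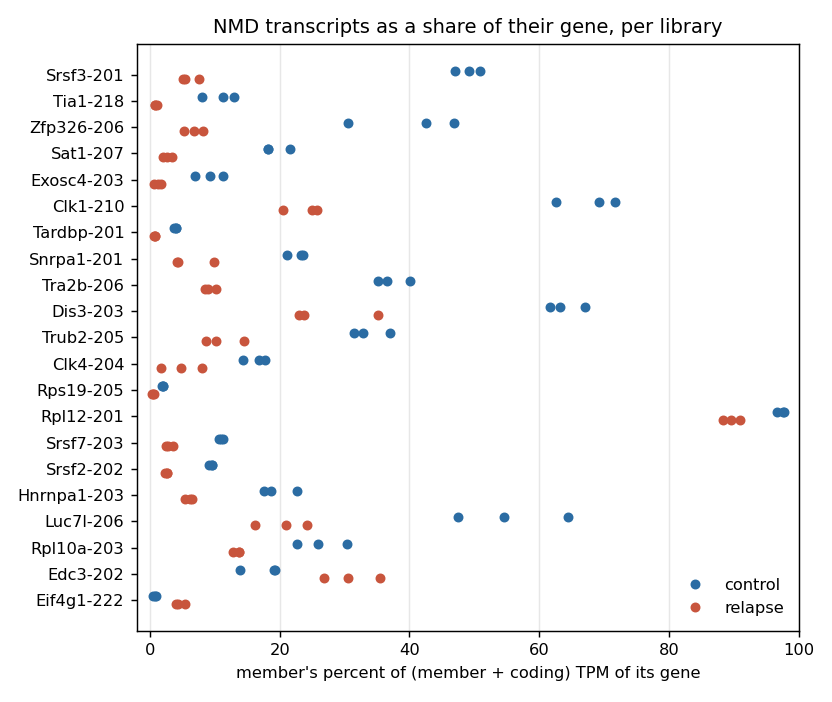
Percent of a gene's NMD-member plus coding TPM that the member holds (horizontal axis) in each of the 3 control and 3 relapse libraries, for the 21 named members outside the 8 most abundant that passed the level test and did not overlap in ratio, with Myof-205 left out because its controls are at 0. Controls lie above relapse in 19 members, and below it in Eif4g1-222 and Edc3-202. The members were chosen for ratios without overlap, so the separation of the groups follows from the choice. Over all transcripts tested, 12.3% had ratios lower and 13.5% higher without overlap.

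The CLK kinases phosphorylate SR proteins and release them from nuclear speckles, and their own RNAs are spliced to NMD forms. Of 11 members of CLK and SR kinase genes, 4 fell and 1 rose, and 3 ratios were lower without overlap and none higher. Clk1-210 (chr1:58412000-58424066) had 20.2, 20.5 and 17.6 TPM in controls and 6.73, 5.88 and 7.65 TPM at relapse, and its coding transcripts had 8.99, 8.11 and 10.5 TPM and 20.3, 22.7 and 22.1 TPM. The member exceeded the coding transcripts in controls, at 67.8 ± 4.7% of the 2 together. It was below them at relapse, at 23.7 ± 2.78% (SD, n = 3 each). Clk1-211, another member of the gene, ranged from 0.342 to 3.74 TPM in controls and from 0.440 to 2.03 TPM at relapse, and the groups overlapped. Clk4-204 had 5.14, 4.85 and 3.81 TPM and 1.63, 0.353 and 0.886 TPM. Its fall rests on a borderline call (edgeR, adjusted p = 0.049) that did not pass when any 1 library was left out.

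Core spliceosome genes had 27 members in 21 genes, of which 19 were tested for level. Of those, 2 fell and none rose, not above the 16.3% and 16.2% of all transcripts tested. Ratios were lower without overlap in 9 and higher in none, with a median log2 change of -0.86. Luc7l-206 (chr17:26252999-26280723), of a U1-associated protein, had 27.9, 23.2 and 20.5 TPM in controls and 9.56, 6.69 and 10.9 TPM at relapse, and its coding transcripts had 15.4, 19.4 and 22.7 TPM and 36.1, 34.5 and 34.2 TPM. The member was above the coding level in controls 1 and 2, and below it in control 3 and in every relapse library. Snrpa1-201, of the U2 snRNP protein A′, had 17.6, 17.3 and 17.8 TPM and 3.86, 9.19 and 3.89 TPM. Its level call (edgeR, adjusted p = 0.0305) was lost when any 1 library except relapse replicate 2 was left out. U2af2-204, of the large U2AF subunit, had a level change of -0.14 ± 0.24 SE on the log2 scale, which did not pass, beside a coding sum that rose by 0.74 ± 0.04 SE.

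Ribosomal protein genes had 17 members, of which 6 fell and 1 rose in level, and 8 ratios were lower and 2 higher without overlap. Genes of this kind have many processed copies in the genome, so how reads were divided among them is uncertain. Rpl10a-203 (chr17:28328584-28331032), of a large-subunit protein, had 286, 304 and 297 TPM in controls and 112, 120.5 and 118 TPM at relapse, a fall of 2.33-fold (edgeR, adjusted p = 7.73e-06), while its coding sum did not pass (adjusted p = 0.878). The ratio of the 2 did not pass either (edgeR, adjusted p = 0.13 at 30 counts and 0.0588 at 100). Rps19-205 had 36.6, 34.7 and 32.4 TPM and 8.8, 5.55 and 10.8 TPM, beside coding transcripts of 1824, 1639 and 1734 TPM and 1673, 1716 and 1851 TPM. This poison exon form was only 1.96 ± 0.12% and 0.475 ± 0.136% of NMD plus coding TPM (SD, n = 3 each). Rpl12-201 had 462, 479.9 and 451 TPM and 71.3, 69.5 and 63.6 TPM but only 821 coding counts in all libraries together. The form labelled NMD thus held most of the NMD plus coding TPM, 97.3 ± 0.544% in controls and 89.6 ± 1.27% at relapse (SD, n = 3 each).

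Translation factor genes had 13 members, 1 fallen and 1 risen, with 2 ratios lower and 3 higher without overlap. Beside them, 12.3% of all transcripts had ratios lower and 13.5% higher without overlap. Eif4g1-222 (chr16:20673295-20692884), of the scaffold of the cap-binding complex, went against most members. It had 2.06, 1.13 and 2.6 TPM in controls and 20.5, 16.2 and 15.5 TPM at relapse, a rise of 9.91-fold (edgeR, adjusted p = 8.81e-04), with a coding sum that rose by 0.62 ± 0.03 SE on the log2 scale. Eif4a1-201, of the cap-complex helicase, had 189, 194 and 218 TPM and 189, 156 and 197 TPM, and these levels overlapped between groups. Its coding sum rose by 0.56 ± 0.03 SE on the log2 scale. Its share of NMD plus coding TPM did not overlap, at 17.7 to 19.9% in controls and 11.8 to 14.7% at relapse. The log2 ratio change of -0.59 ± 0.19 SE did not pass (edgeR, adjusted p = 0.306).

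Genes of mRNA decay had 16 members, of which 13 were tested, 3 fell and 1 rose. Dis3-203 (chr14:99076634-99099764), of a catalytic subunit of the RNA exosome, had 23.8, 25.1 and 27.7 TPM in controls and 6.85, 4.6 and 4.96 TPM at relapse, beside coding transcripts of 14.8, 14.6 and 13.6 TPM and 12.6, 15.5 and 15.9 TPM. It fell 4.28-fold (edgeR, adjusted p = 2.92e-04), and the coding sum did not pass (adjusted p = 0.0758). Exosc4-203, of an exosome ring subunit, fell from 3.03, 3.46 and 2.13 TPM to 0.33, 0.146 and 0.402 TPM. Edc3-202, of an activator of decapping, had 1.95, 2.51 and 2.44 TPM and 3.29, 4.16 and 3.06 TPM, a rise (edgeR, adjusted p = 0.0284) that did not pass when any 1 of controls 1 to 3 or relapse replicates 1 and 2 was left out.

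Outside the lists, Sat1 showed one of the larger differences. Sat1 encodes spermidine/spermine N1-acetyltransferase, the enzyme that starts polyamine breakdown, whose poison exon is known to respond to polyamines. Sat1-207 (chrX:155213132-155216449) had 20.7, 17.6 and 17.4 TPM in controls and 2.36, 4.02 and 2.89 TPM at relapse, and its coding transcripts had 75.4, 79.5 and 78.3 TPM and 113, 115 and 109 TPM. The member fell 5.59-fold (edgeR, adjusted p = 7.45e-04) while the coding sum rose by 0.66 ± 0.06 SE on the log2 scale. Its share was 19.3 ± 1.96% in controls and 2.68 ± 0.676% at relapse (SD, n = 3 each).

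Zfp326 encodes a zinc finger protein that links splicing to transcription. Zfp326-206 had 5.96, 8.04 and 4.66 TPM in controls and 1.36, 1.53 and 2.02 TPM at relapse, while its coding sum rose by 1.48 ± 0.09 SE on the log2 scale. Trub2-205, of a mitochondrial pseudouridine synthase, had 5.21, 4.73 and 4.93 TPM and 1.24, 1.27 and 1.42 TPM. Both were lower in every relapse library than in any control.

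Some members had counts in 1 group and none in the other. Myof-205 (chr19:37899228-37915750), of the membrane-repair protein myoferlin, had 0 TPM in every control and 14.2, 16.1 and 22.9 TPM at relapse. With an assumed floor of 3 counts over the control group, a chosen value and not a measured bound, it was 141-fold higher. The coding transcripts had 131, 138 and 136 TPM in controls and 135, 142 and 138 TPM at relapse. Guf1-205 and Kdm5a-206, named because their ratios passed at 100 counts though they fall outside the naming rule, had 153 and 192 counts over the controls and 0 at relapse. With the same assumed floor over the relapse group they were 51.4-fold and 64.5-fold lower. Each of Myof-205, Guf1-205 and Kdm5a-206 passed the minimum totals only through the group where it had counts. Their ratio calls at 100 counts therefore carry that choice with them. Guf1 is a mitochondrial translation factor and Kdm5a a histone demethylase. Of the 2637 members, 89 (3.38%) summed to under 3 counts in controls and 91 (3.45%) at relapse, beside 3.02% and 2.67% of the 40326 transcripts with the same minimum total.

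Of the 8 most abundant members 7 are described. Several had more TPM than the coding transcripts of their gene, and the members described moved in both directions. Hnrnpu-206 held 82.7 ± 0.44% of NMD plus coding TPM in controls and 83 ± 0.426% at relapse (SD, n = 3 each). It rose 1.3-fold with its coding sum (log2 0.38 ± 0.04 SE and 0.38 ± 0.03 SE by edgeR), and the shares of the groups overlapped. Ppia-201, of the chaperone cyclophilin A, had 599.6, 593 and 554 TPM in controls and 1067, 1052 and 874 TPM at relapse, a rise of 1.85-fold. Qki-202, of an RNA-binding regulator of splicing, had 63.7, 71.1 and 69 TPM and 34.1, 34.2 and 31.4 TPM, a fall of 1.83-fold.

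Lars2-209, of the mitochondrial leucyl-tRNA synthetase, fell 1.62-fold, and Uggt1-209, of the folding sensor of the endoplasmic reticulum, fell 1.14-fold. Flna-213, of the actin crosslinker filamin A, had 129.7, 113 and 128 TPM and 89.3, 90.9 and 103 TPM; its level did not pass (edgeR, adjusted p = 0.0793) while its coding sum fell by 0.79 on the log2 scale. Cct8-209, of a chaperonin subunit, had 233, 218 and 226 TPM and 213, 214 and 183 TPM and did not pass (adjusted p = 0.711). In all, 198 members had more counts than the coding transcripts of their gene.

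The position of the stop codon was read from GENCODE M21 for the 2605 members with one. In 2601 of them the stop lay 50 or more bases before the last exon junction, the distance used to label such transcripts, with a median of 470 bases. In 1521 members the stop fell in exon sequence of a coding transcript, translated or not, without being the stop of one. Reading frames were not compared. The stop fell in an exon absent from coding transcripts in 495, and in an extended or retained part of an exon in 352. In 202 the stop was shared with a coding transcript, and 35 had no coding transcript in that release. Exons before and behind a shared stop were not compared.

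Ratios were also read by class. Over all transcripts tested, 12.3% were lower and 13.5% higher without overlap. Members with the stop in an exon absent from coding transcripts had a median log2 ratio change of -0.44 over 488 tested. Of these, 107 (21.9%) were lower and 47 (9.63%) higher without overlap. Members with a shared stop had a median of -0.48 over 197, with 45 (22.8%) lower and 21 (10.7%) higher. Members with the stop elsewhere in exon sequence of coding transcripts, the largest class, had a median of -0.07 over 1503. Their 199 lower (13.2%) were near the share of all transcripts, beside 140 higher (9.31%). The extended or retained class had a median of -0.17 over 348. Of the 22 members called at 100 counts, 9 had the stop in an absent exon and 4 had a shared stop. The stop of 9 was elsewhere in exon sequence of coding transcripts. No test was made between the classes, which share genes.

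Genes of the NMD machinery changed in both directions. Over all 14373 genes tested by edgeR, 36.6% rose and 36.9% fell, 73.5% together, so a call is the usual outcome in these libraries. Among the 17 NMD factor genes there were 10 falls and 4 rises, and 3 were not called. Their median log2 change was -0.16, against 0.00189 over all genes. Upf1, the central helicase, had 87.9, 86.3 and 92.1 CPM in controls and 138, 134 and 140.4 CPM at relapse and rose by 0.63 ± 0.04 SE on the log2 scale. Smg1, the kinase of Upf1, had 229, 259 and 239 CPM and 149, 154 and 149 CPM and changed by -0.69 ± 0.04 SE. Smg6, the endonuclease, had 72.7, 64.8 and 66.8 CPM and 35.4, 35.8 and 39.9 CPM and changed by -0.88 ± 0.06 SE.

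Pnrc2, an adaptor between Upf1 and decapping, fell most of the list, with 228, 239 and 222 CPM and 75.9, 76 and 72.8 CPM (log2 -1.62 ± 0.04 SE). Nbas, which acts with the NMD factors at the endoplasmic reticulum, had 91, 94.4 and 90.7 CPM and 43.6, 44.3 and 41.4 CPM (log2 -1.09 ± 0.05 SE). Ncbp2, the small subunit of the nuclear cap-binding complex, rose from 49.2, 48.2 and 47.2 CPM to 79.7, 84.9 and 80.4 CPM (log2 0.76 ± 0.05 SE). This list has 2 members. Smg6-202 fell 2.07-fold beside a coding sum that fell by 0.78 on the log2 scale, and Smg5-202 did not pass (edgeR, adjusted p = 0.206). Without relapse replicate 1 the adjusted p of Smg6-202 was 0.0521 by edgeR.

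**Figure D5:**
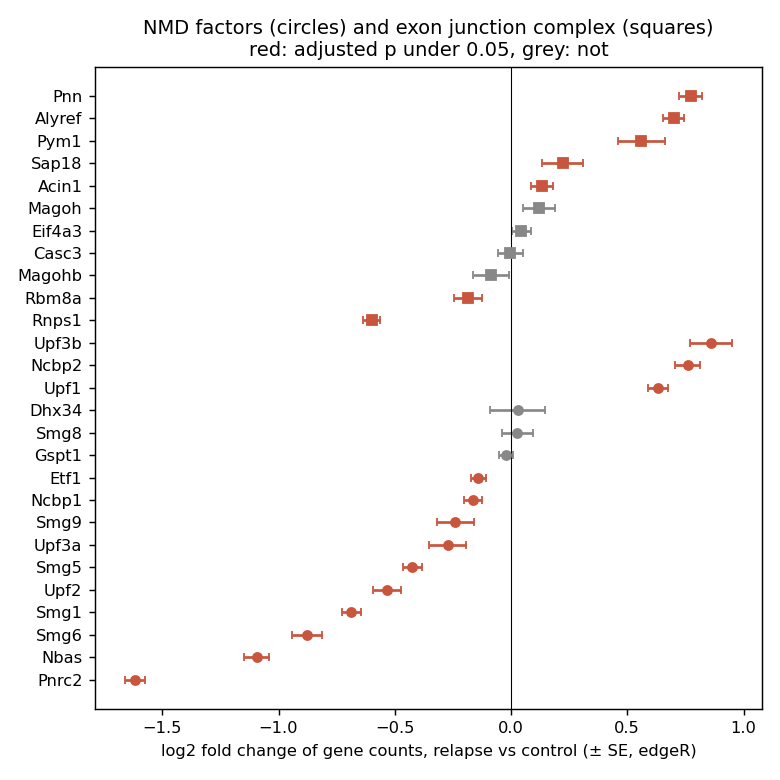
Log2 fold change of gene counts, relapse against control (horizontal axis), with SE from edgeR, for 16 of the 17 NMD factor genes (circles) and 11 EJC genes (squares); red marks an adjusted p under 0.05. Of the NMD factors shown 10 lie below 0 and 3 above it in red, and of the EJC genes 2 below and 5 above.

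Other lists stood near the background or apart from it. Of 11 EJC genes 5 rose and 2 fell, and the core proteins encoded by Eif4a3 and Magoh did not pass. The EJC list has 2 members, both of Magohb and both low. Magohb-202 had 0 TPM in every control and 4.64, 2.8 and 8.65 TPM at relapse. With the assumed floor of 3 counts over the group it was 12.3-fold higher, and it passed the minimum total only through the relapse libraries. Magohb-203 had 6.88, 2.61 and 4.4 TPM in controls and 0.854, 0.851 and 0.877 TPM at relapse. Of 37 mRNA decay genes tested 9 rose and 17 fell. Of 51 hnRNP genes 36 rose and 11 fell, of 12 SR genes 6 rose and 4 fell, and of 8 CLK and SR kinase genes 1 rose and 4 fell.

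Genes that NMD is known to hold down through other features were also read. Of 10 stress-response targets, such as the transcription factor Atf4, 9 fell and none rose, with a median log2 change of -2.40. Of 13 snoRNA host genes, whose spliced RNAs are NMD substrates, 8 fell and 1 rose, with a median of -0.37. Neither list has a member with the NMD label, and both also depend on transcription, whose part was not tested.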

How the data were processed

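Poly(A)-selected RNA was sequenced from TruSeq stranded libraries, per the labels' protocols. The submitters' processing notes name Salmon, with no version, and the builds GRCm38 (mm10) and, for human cells, GRCh38 (hg38). The deposited tumour tables hold estimated counts and TPM per transcript, made by the authors. Counts were rounded. None of the 2637 members shares a versioned ID with GENCODE M21, so 2606 were matched to it on unversioned ID, length and type, and 31 were not placed. Other tables of the series were not analysed here.

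R 4.3.3 with edgeR 4.0.16 was used (TMM, filterByExpr, robust quasi-likelihood test, Benjamini-Hochberg adjustment over all features tested). The ratio test took 2 counts per library, the transcript and the other coding transcripts of its gene, each with a total of at least 30, with library as a block. limma 3.58.1 and DESeq2 1.42.0 were alternatives. Log2 count ratios used a pseudocount of 0.5 and TPM ratios 0.1. SE is the log2 change divided by the root of F. Scripts were tested on simulated data.

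Transcripts named are the 8 highest by mean CPM, up to 8 rises and 8 falls of ratio past the threshold with a mean of at least 50 counts and no overlap, up to 4 per gene list by ratio p, and up to 4 moving against their coding sum, and NMD factor genes by p. As the main ratio test called 0, the choices by ratio threshold were taken from the 100-count alternative after values were seen. The members and lists were chosen with earlier results of these data known. Values of 2 genes are not reported here.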

Additional observations from a re-analysis of the deposited data

How the results depend on the processing

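The counts of members that fell and rose in level were 362 and 187 with DESeq2, and with limma on log2(TPM + 1) without a filter 64 rose. Leaving out 1 library at a time gave 156 to 208 that fell and 70 to 110 that rose. The fewest falls, 156, came without control replicate 3. With the replicate block, 130 fell and 54 rose, and no ratio was called. Same-numbered libraries did not deviate together (r of 0.0129, 0.0148 and 0.00615), so no pairing by number was seen. With so little spread between the libraries of a group, this check cannot exclude a pairing. For the ratio, members lower and higher were 0 and 0 in the main test and in every leave-one-out fit (range 0 to 0), 20 and 2 at 100 counts, 16 and 8 with limma on the TPM ratio, and 95 and 36 with edgeR diffSpliceDGE. With alternatives chosen after seeing the data, limma voom gave 42 and 9 and edgeR with bias-adjusted deviances 5 and 0. The cause of these differences was not tested. The difference in library share was -0.339 percentage points on TPM and -0.522 within genes that have a member, and -0.272 to -0.253 without 1 library. NMD factor genes kept counts of 10 and 4 in each leave-one-out fit.

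A few single values, none of them called, changed sign without 1 library. On the log2 scale the level of Eif4a1-201 was between -0.0825 and 0.0810, of U2af2-204 between -0.235 and 0.000626 and of Cct8-209 between -0.0635 and 0.0402, and the ratio of Hnrnpu-206 between -0.00588 and 0.0522. Among named members, 29 pairs of a member and an alternative lost the level call. Counts of members under about 100 limit single ratios.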
